A study of Mus musculus with 4 samples.

Results

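Inhibitory receptors of T and NK cells were followed in ascites of mice that carried an ovarian tumour line. The group held 8 genes of the 29835 listed in the count matrices: Pdcd1, Lag3, Havcr2, Tigit, Ctla4, Tox, Cd160 and Btla. They were taken by name and were listed in all 4 libraries. Each was measured as unique molecular identifiers (UMIs, counts of captured RNA molecules) in cells gated by UMIs of lineage genes. CD8 T cells had at least 2 UMIs of Cd3d, Cd3e and Cd3g and at least 1 of Cd8a and Cd8b1. CD4 T cells had Cd4 and no Foxp3, regulatory T cells (Treg) had Foxp3, and NK cells had at least 2 UMIs of Ncr1, Klrb1c and Klre1 and at most 1 of the Cd3 genes. Every T gate required 2 Cd3 UMIs and excluded the other T gates. The T and NK gates held 2959 of 46342 deposited cells.

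The host was the C57BL/6 mouse. ID8-Trp53-/- cells, a mouse ovarian surface epithelial line with Trp53 knocked out, were given into the peritoneal cavity of all animals, and treatment began after 7 days. Control animals received DMSO and IgG control antibody, and the BTYNB group received BTYNB, a small molecule directed at the RNA-binding protein IGF2BP1, and IgG control antibody. The anti-PD-1 group received DMSO and the PD1 blocking antibody RMP1-14, and the combination group received BTYNB and that antibody. The labels give 50 mg/kg BTYNB and 100 ng antibody per dose, the study's methods state other amounts, and animals were ended at about 3 mL of ascites. Cells of animals of 1 group were pooled into 1 library, so no value has a replicate, no test between groups was possible, and every interval below covers counting error only, at 95%.

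These receptors dampen lymphocytes that have met antigen. PD-1 (Pdcd1) binds PD-L1 and PD-L2, CTLA-4 (Ctla4) competes with CD28 for CD80 and CD86, and TIGIT binds the poliovirus receptor family. LAG-3 (Lag3) binds MHC class II, TIM-3 (Havcr2) binds several ligands including galectin-9, and BTLA (Btla) and CD160 (Cd160) bind HVEM, the product of Tnfrsf14. Tox is no receptor but a nuclear factor that sustains the exhausted state of CD8 T cells, in which several of these receptors are present together.

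The libraries differed in the depth of their cells. Total UMIs were 78603888 to 114600397 per library, and the BTYNB matrix held cells down to 869 UMIs while the combination matrix held none under 5115. Of kept BTYNB cells 69.8% lay under that floor, so ratios between libraries were taken among cells of at least 5115 UMIs, unless stated. BTYNB gave 2856 gated T and NK cells, combination 85, control 11 and anti-PD-1 7. Libraries shared 0 to 4 cell numbers. Markers that the gates did not use were compared in BTYNB with the gates outside T and NK cells. All of these were exceeded for 4 of 4 Treg, 3 of 3 CD8 T and 3 of 3 CD4 T genes. The NK count was 5 of 6. This check did not compare the T and NK gates with each other. For T cells as a whole the NK gate was compared too. There the count was 2 of 6, since Trbc1, Lck, Cd2 and Cd28 were also found in the NK gate. Wt1, a marker of the tumour gate, was found in every gate, at 176 CPM (UMIs of a gene relative to all UMIs of the gate) in CD8 T cells and 911 CPM in tumour cells. Icos, a CD4 T marker, was higher in Treg (656 CPM) than in CD4 T cells (448 CPM), while Cd40lg and Cd28 were higher in CD4 T cells.

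Promoters are shown for 4 members, Pdcd1, Havcr2 and Tigit, which were higher in CD8 T cells of more UMIs, and Ctla4, which was highest in Treg. Each runs from 250 bases before to 50 after the RefSeq start on build GRCm38.p6, 5′ to 3′ along the gene, at chr1:94052504-94052803 (minus strand), chr11:46454681-46454980 (plus), chr16:43664135-43664434 (minus) and chr1:60908775-60909074 (plus). The count files were made on another build, so these positions belong to RefSeq alone. Capitals mark matches on either strand to TGGAAA (the core bound by NFAT), TGANTCA (AP-1) or GTAAACA (forkhead factors), which do not overlap here.
Pdcd1: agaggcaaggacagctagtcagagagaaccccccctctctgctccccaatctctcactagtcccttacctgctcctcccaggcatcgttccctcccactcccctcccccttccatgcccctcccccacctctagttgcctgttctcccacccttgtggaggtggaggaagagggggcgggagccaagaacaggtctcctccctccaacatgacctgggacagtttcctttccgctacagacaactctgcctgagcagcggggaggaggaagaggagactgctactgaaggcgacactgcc
Havcr2: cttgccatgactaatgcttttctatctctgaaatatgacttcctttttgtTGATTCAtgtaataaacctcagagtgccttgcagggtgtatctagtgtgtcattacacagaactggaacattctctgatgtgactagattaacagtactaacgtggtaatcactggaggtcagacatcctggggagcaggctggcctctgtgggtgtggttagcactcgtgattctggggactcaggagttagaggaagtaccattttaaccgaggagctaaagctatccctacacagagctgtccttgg
Tigit: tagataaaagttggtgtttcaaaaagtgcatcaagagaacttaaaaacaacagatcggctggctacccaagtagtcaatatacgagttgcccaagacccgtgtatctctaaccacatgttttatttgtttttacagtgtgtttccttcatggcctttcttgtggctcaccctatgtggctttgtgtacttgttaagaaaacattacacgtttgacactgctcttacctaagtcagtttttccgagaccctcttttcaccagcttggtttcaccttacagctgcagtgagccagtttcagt
Ctla4: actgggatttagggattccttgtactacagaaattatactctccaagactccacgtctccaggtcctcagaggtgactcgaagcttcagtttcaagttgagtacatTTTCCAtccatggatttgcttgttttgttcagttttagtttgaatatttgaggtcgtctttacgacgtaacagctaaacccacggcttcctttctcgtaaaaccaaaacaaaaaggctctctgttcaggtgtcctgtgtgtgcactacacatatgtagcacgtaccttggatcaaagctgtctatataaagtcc
The NFAT core was matched in Ctla4 and AP-1 in Havcr2, while Pdcd1 and Tigit held none of the 3 motifs. Among 32841 mouse promoters of this length, 21.4% held TGGAAA, 7.81% TGANTCA and 3.65% GTAAACA. Lag3 and Tox were not shown.

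In BTYNB, Pdcd1 was a gene of T cells. Its level was 27.7 CPM in CD8 T cells (80 UMIs, interval 22.0 to 34.5), 25.7 in CD4 T cells and 23.4 in Treg, with intervals that overlapped. In NK cells 1 UMI was found in 625 cells, or 0.47 CPM, and in macrophages and monocytes none was found. CD8 T cells held 45.5% of all Pdcd1 UMIs of that library.

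Lag3 was highest in CD8 T cells at 26.6 CPM (21.0 to 33.3). CD4 T cells had 0 UMIs in 308 cells, and Treg had 10.4 CPM (2.84 to 26.6), an interval that reached that of CD8 T cells. Tumour cells carried 8.28 CPM and held 55.2% of the library's Lag3 UMIs. Their median depth of 16026 UMIs was the highest of the 11 gates. Lag3 lies between Cd4 and Ptms in the RefSeq annotation and overlaps neither.

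Havcr2 and Btla had most of their UMIs outside T and NK cells. Havcr2 was at 180 CPM in dendritic cells (169 to 193), 42.9 in CD8 T cells and 42.2 in macrophages and monocytes, and 7.86% of its UMIs lay in T and NK gates. Btla was at 685 CPM in B cells, 356 in dendritic cells, 98.7 in CD4 T cells and 72.7 in CD8 T cells, and B cells held 56.0% of its UMIs. Among dendritic cells, the 382 with at least 2 UMIs of Xcr1 and Clec9a, which mark cross-presenting cells, had 239 CPM of Havcr2 and 463 of Btla. The 78 with at least 5 UMIs of Ccr7 and Fscn1, markers of mature dendritic cells, had 34.8 and 107 CPM. The combination library gave the same order, 245 and 391 CPM against 22.3 and 66.9 CPM. These cut-offs were chosen after the values had been seen.

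Ctla4 was ordered by T cell type. Treg carried 1826 CPM (1694 to 1967), CD4 T cells 556, T cells of no other gate 277, gamma-delta T cells 197, CD8 T cells 165, NK cells 72.9 and tumour cells 8.51. The intervals of Treg, CD4 T and CD8 T cells did not overlap, and those of CD8 T and gamma-delta T cells did. When each cell was thinned to 1000 UMIs, Ctla4 was found in 72.9% of Treg, 33.1% of CD4 T, 12.1% of CD8 T and 5.97% of NK cells. The share in tumour cells, which should lack the receptor, was 0.714%, and before thinning the shares were 95.4%, 45.1%, 23.4%, 14.9% and 12.8% at median depths of 2383, 1895.5, 2226, 2833 and 16026 UMIs.

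Tigit was highest in Treg and NK cells, at 96.3 CPM (67.8 to 133) and 67.7 (57.1 to 79.7), and CD4 and CD8 T cells followed at 37.2 and 36.3. NK cells held 30.6% of its UMIs. In RefSeq, Tigit overlaps Zbtb20, a transcription factor gene. Whether this overlap affects the reads assigned to Tigit was not tested. Tox was at 268 CPM in Treg and between 122 and 164 CPM in the other T gates and in NK cells, while B, myeloid and tumour cells had at most 8.10 CPM.

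Cd160 marked NK and gamma-delta T cells. It was at 80.9 CPM in NK cells (69.2 to 93.9) and 66.6 in gamma-delta T cells (42.7 to 99.1), and at 17.3 in CD8 T cells. CD4 T cells held 2 UMIs, and 0 UMIs in 109 Treg allow up to 7.81 CPM. NK cells held 50.1% of the Cd160 UMIs.

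**Figure D1:**
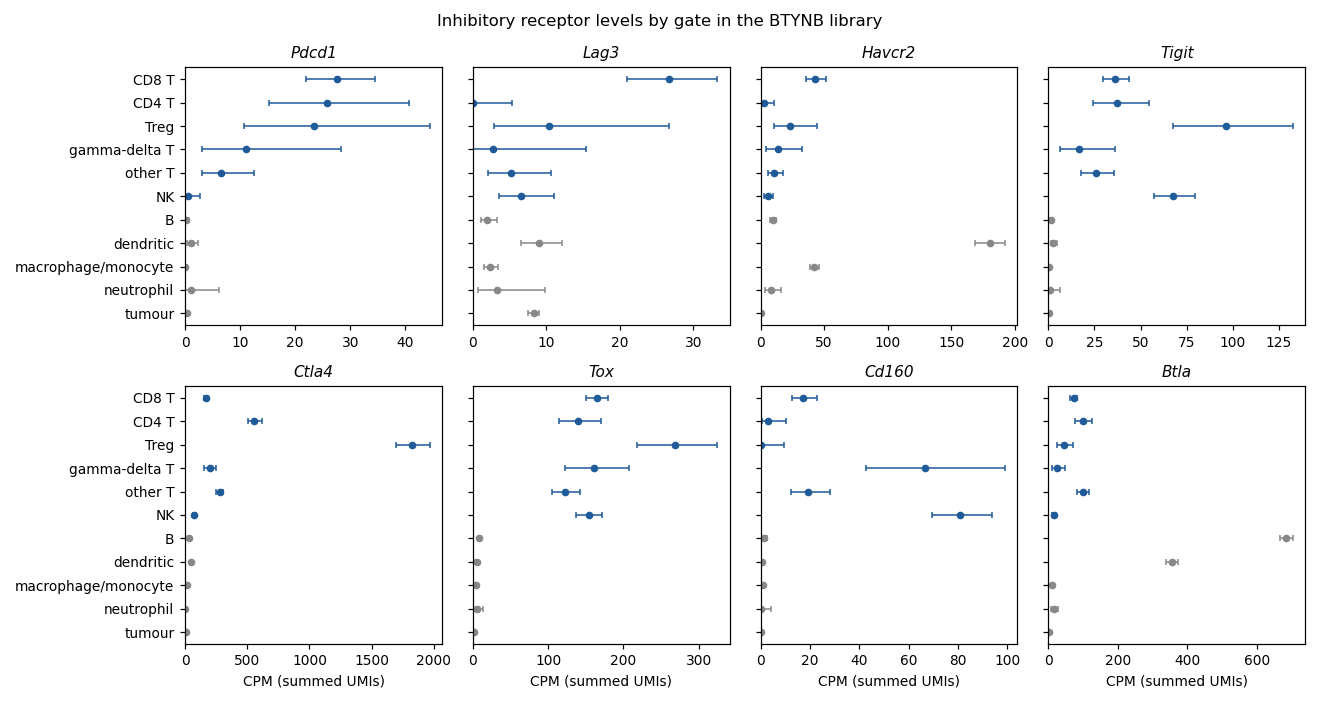
Level of each member (x axis, CPM of summed UMIs) in the 11 gates of the BTYNB library (y axis); bars are exact Poisson intervals of 95%, blue marks T and NK gates and grey the others. Pdcd1 lies in T gates, Ctla4 peaks in Treg at 1826 CPM, Cd160 in NK cells at 80.9 CPM, Havcr2 in dendritic cells at 180 CPM and Btla in B cells at 685 CPM.

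Members were then counted between gates of BTYNB, a member being called when its ratio passed 2-fold and both gates together held at least 20 UMIs. Over CD4 T cells, Treg had 2 of 5 members higher, Ctla4 by 1.71 on the log2 scale (1.53 to 1.90) and Tigit by 1.37, and 1 lower, Btla. Of all genes 6.82% were higher and 7.35% lower. Tox was 0.93 higher, short of the limit. The Treg gate also held Retnlg, a neutrophil gene, at 265 CPM, all 102 UMIs in the 14 cells at the floor, and its part in these results was not tested. Ctla4 was at 574 CPM in those 14 cells and at 2884 CPM in Treg of 2500 UMIs up to the floor. Without cells that had a UMI of Xcr1, Clec9a, Cd209a, Flt3 or Zbtb46, called dendritic UMIs below, the Ctla4 ratio was 2.06 and Tox passed the limit with 1.35. Tigit stayed higher and Btla lower.

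CD8 T cells over CD4 T cells had 3 of 8 members higher and 1 lower, against 7.6% and 5.21% of all genes. Havcr2 was higher by 3.91 on the log2 scale (124 against 2 UMIs) and Cd160 by 2.60. Lag3 was 6.21-fold higher against the limit of 3 UMIs over the CD4 T gate, and the lower bound of its interval was 2.30 on the log2 scale. Ctla4 was lower by 1.75, and Pdcd1 and Tigit differed by 0.10 and -0.03 with intervals that spanned 0. With the gates taken as worded, the ratio of Havcr2 was 1.64 and that of Lag3 0.67, and 2 members were higher. These gates let cells enter more than 1 T gate, and the CD4 T gate then required no Cd3 UMI. It held 571 cells, against 308 in the main gates, and the CD8 T gate held 1111 against 1081.

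NK cells over CD8 T cells had 1 of 8 members higher and 5 lower, against 6.65% and 7.79% of all genes. Cd160 was higher by 2.22 on the log2 scale. Pdcd1 was lower by 5.88 (1 against 80 UMIs), Havcr2 by 2.93, Btla by 2.23, Lag3 by 2.02 and Ctla4 by 1.18. Tox was at 154 CPM in NK cells and 164 in CD8 T cells, with intervals that overlapped.

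Genes of the receptors' pathways were read from fixed lists in the same comparisons. Of 8 co-stimulatory receptors with enough UMIs, 4 were higher and 1 lower in Treg than in CD4 T cells, and 2 were higher and 5 lower in CD8 T than in CD4 T cells. Of 10 effector genes, 1 was higher and 7 were lower in Treg than in CD4 T cells. Of 12, 5 were higher and 1 lower in CD8 T than in CD4 T cells, and 5 higher and 2 lower in NK than in CD8 T cells. The genes with the largest ratios in Treg were Klrg1, another inhibitory receptor, and Gzmb, a cytotoxic granule protease, higher by 5.82 and 4.98 on the log2 scale, and Cd40lg, a helper ligand, lower by 4.11. Ifng was at 0 UMIs in Treg and 36 in CD4 T cells. Against the limit of 3 UMIs it was 6.60-fold lower, with an upper bound of -2.35 on the log2 scale. In CD8 T cells Prf1 (perforin) and Eomes were higher than in CD4 T cells by 4.53 and 3.27, and Cd40lg was lower by 5.43. Klrc1, at 0 UMIs in CD4 T cells, was 9.60-fold higher against the limit of 3 UMIs, with a lower bound of 2.94. In NK cells Gzma and Klrg1 were higher than in CD8 T cells by 5.63 and 4.98, and Cd5 and Tox2 lower by 4.43 and 4.14.

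Among CD8 T cells of BTYNB, levels of Pdcd1, Havcr2, Lag3, Tigit, Tox and Cd160 were higher in the deepest cells than in those of 1500 to 2500 UMIs, and those of Ctla4 and Btla were not apart. From the 175 cells under 1500 UMIs to the 63 at the floor, Pdcd1 was at 8.90, 12.05, 29.8 and 58.7 CPM over the 4 depth classes, with edges at 1500 and 2500 UMIs and at the floor. Havcr2 went from 0 UMIs to 15.1, 32.5 and 130 CPM, Lag3 from 0 UMIs to 16.1, 25.3 and 58.7 CPM, and Tigit from 8.90 to 18.1, 40.7 and 71.2 CPM. Tox was at 134, 114, 177 and 240 CPM and Cd160 at 8.90, 8.03, 21.7 and 28.5 CPM, the last on 16 UMIs. The interval of Cd160 in the shallowest class, 1.08 to 32.2 CPM, overlapped that of the deepest. Ctla4 (200, 159, 153 and 187 CPM) and Btla (66.8, 72.3, 76.8 and 67.6 CPM) had overlapping intervals throughout. Over the same classes Gzmb was at 4.45, 26.1, 46.1 and 333 CPM and Mki67, a marker of cycling cells, at 22.3, 22.1, 63.2 and 407 CPM. Tcf7, a factor of naive and memory T cells, stood at 1269, 1160, 1057 and 176 CPM. CPM is scaled to each class's total but does not match the kinds of cells between classes, and the cause of these differences was not tested.

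Dendritic RNA moved with depth as well, since 118 of the 119 Xcr1 UMIs in CD8 T cells lay in the 63 cells at the floor. In the 39 of these cells without a dendritic UMI, Pdcd1 was at 85.4 CPM, Havcr2 at 152, Lag3 at 72.8 and Tigit at 108. Btla was the exception: 36 of its 38 UMIs lay in the 24 cells with a dendritic UMI, and the other 39 cells had 6.33 CPM (0.77 to 22.9). In NK cells at the floor, 15 of 20 Btla UMIs lay in the 18 cells with a dendritic UMI. All 10 Havcr2 UMIs of NK cells lay there too, whereas in CD8 T cells 48 of 73 Havcr2 UMIs lay in cells without one.

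**Figure D2:**
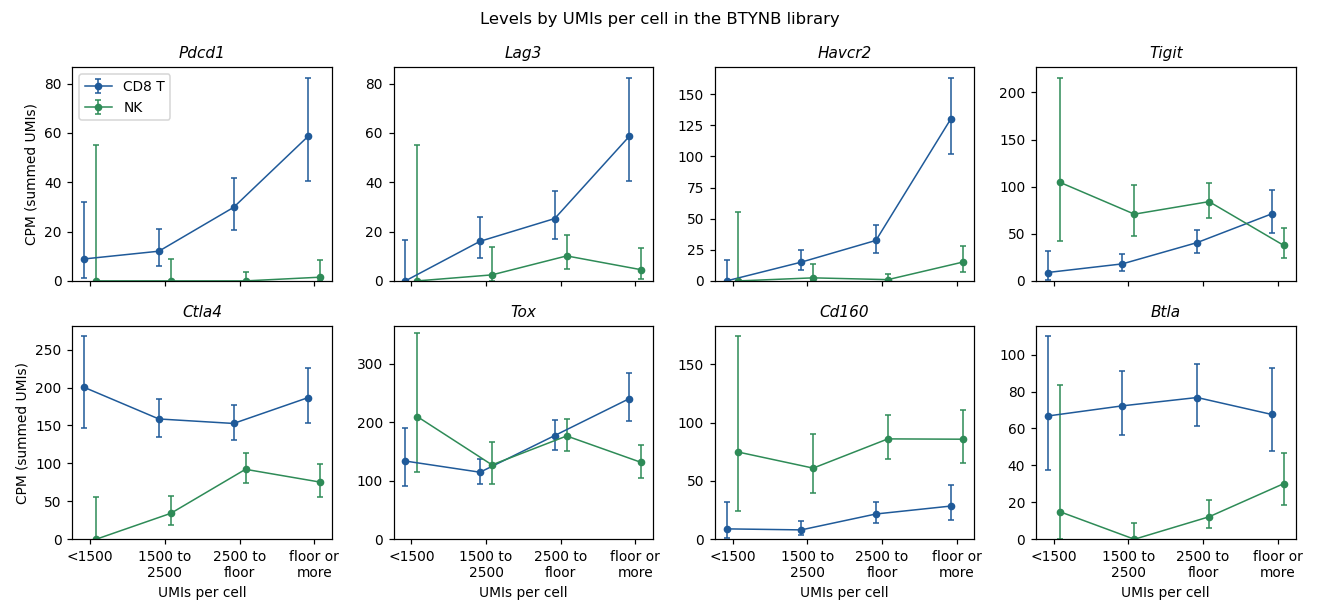
Level of each member (y axis, CPM) in CD8 T cells (blue) and NK cells (green) of the BTYNB library by UMIs per cell (x axis, 4 classes); bars are exact Poisson intervals of 95%. In CD8 T cells Pdcd1, Lag3, Havcr2, Tigit, Tox and Cd160 are highest in the deepest class, at 58.7, 58.7, 130, 71.2, 240 and 28.5 CPM, while Pdcd1 in NK cells stays at or near 0.

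CD8 T cells with a Pdcd1 UMI carried more of the other receptors. To narrow the gap in depth, cells of at least 2500 UMIs were used, of which 39 had Pdcd1 (9.65%) and 365 had none, at median depths of 5075 and 3170 UMIs. Of the 7 other members 6 were at least 2-fold higher in the cells with Pdcd1 and 1 was lower, against 9.37% and 15.2% of all genes. Havcr2 was at 257 against 34.1 CPM, Lag3 at 141 against 19.5, Tox at 488 against 151 and Tigit at 128 against 38.3. Ctla4 was at 312 against 140 CPM and Cd160 at 51.3 against 19.5, while Btla was at 29.9 against 80.8 CPM. Without cells with a dendritic UMI the log2 ratios were 3.45 for Havcr2, 2.62 for Lag3, 1.75 for Tox and -2.13 for Btla, in 35 cells with Pdcd1 and 336 without.

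The cells with Pdcd1 differed in other genes too. Gzmb was at 714 against 49.5 CPM, Tnfrsf9 (4-1BB, a co-stimulatory receptor of activated T cells) at 684 against 77.3, Cxcr6 at 385 against 66.2 and Mki67 at 492 against 128. Of the 12 effector genes 9 were higher and none was lower, and all 6 naive and memory genes were lower. Of 15 transcription factors of exhaustion and effector cells 4 were higher and 6 lower, and of 7 other inhibitory receptors 3 were higher and none lower, or 2 higher and 1 lower of 6 without cells with a dendritic UMI. Il7r was at 68.4 against 946. Tcf7 was at 38.5 against 878 CPM and Tox2 at 29.9 against 9.06. The genes named here from the lists were chosen after their values had been seen. After thinning to 1000 UMIs, 26 of 1072 CD8 T cells (2.43%) showed 3 or more members and 74.0% showed none.

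**Figure D3:**
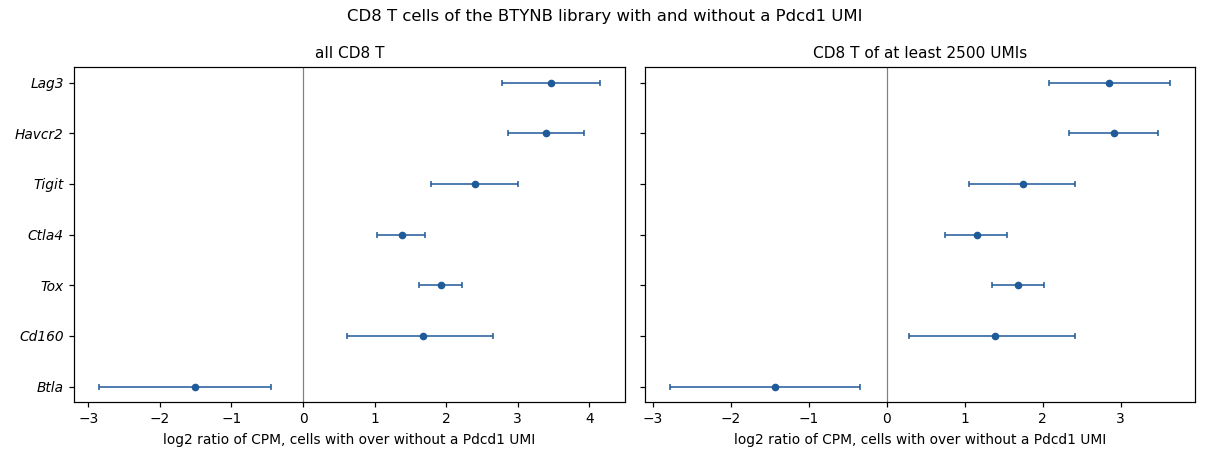
Log2 ratio of CPM (x axis) between CD8 T cells with and without a Pdcd1 UMI in the BTYNB library for the 7 other members (y axis), in all CD8 T cells (left) and in those of at least 2500 UMIs (right); bars are conditional binomial intervals of 95%. Lag3 and Havcr2 have the highest ratios, 2.85 and 2.91 in the right panel, and Btla alone lies below 0.

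The combination and BTYNB libraries, which differ by the PD1 blocking antibody, were compared in CD8 T cells of at least 5115 UMIs, 39 against 63 cells. The 39 were the whole gate of combination, whereas the 63 were part of 1081 cells in BTYNB. Those 63 were the depth class with the highest Mki67 and Gzmb and the lowest Tcf7. No member was 2-fold higher or lower, against 3.81% and 4.23% of all genes, and all 8 intervals of the ratio spanned 0. Pdcd1 was at 80.3 CPM in combination (22 UMIs) and 58.7 in BTYNB (33 UMIs), a log2 ratio of 0.45 (-0.40 to 1.27). Lag3 was at 83.9 and 58.7 CPM, Havcr2 at 172 and 130, Tox at 296 and 240, and Ctla4 at 237 and 187. Tigit was at 65.7 and 71.2 CPM, Btla at 62.0 and 67.6, and Cd160 at 14.6 and 28.5. The median log2 ratio of the members was 0.32 and that of all genes 0.04. The upper bounds of the 8 intervals ran from 0.67 (Cd160) to 1.33 (Lag3) and the lower from -3.00 (Cd160) to -0.12 (Tox), so differences within them were not detectable at this depth.

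The comparison depended on the depth of the cells. Among cells of all depths, 39 against 1081, 3 members were at least 2-fold higher in combination. These were Havcr2 by 2.0, Lag3 by 1.66 and Pdcd1 by 1.54 on the log2 scale. The share of all genes past 2-fold was not taken at this setting. The median log2 ratio there was 0.85 for the members and 0.10 for all genes. Without cells with a dendritic UMI, 23 against 39 cells remained at the floor, and Lag3 was at 48.9 and 72.8 CPM, a ratio of -0.57, while Havcr2 was at 147 and 152 CPM. All 17 Btla UMIs of combination CD8 T cells lay in the 16 cells with a dendritic UMI. Likely doublets had been left out, 57.1% of the CD8 T gate in combination and 44.2% in BTYNB at the floor.

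**Figure D4:**
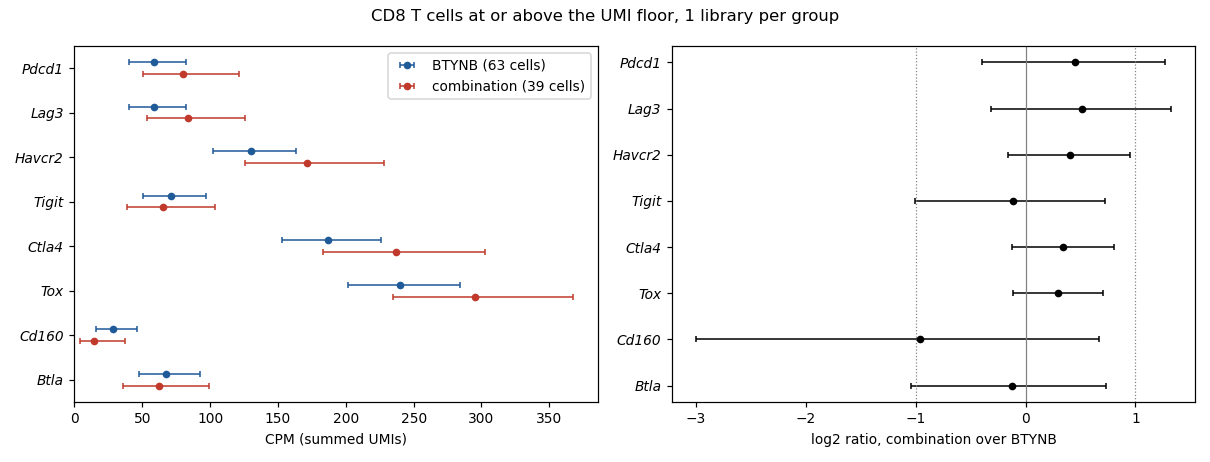
CD8 T cells of at least 5115 UMIs. Left, level of each member (x axis, CPM) in BTYNB (blue, 63 cells) and combination (red, 39 cells); right, their log2 ratio with dotted lines at 2-fold. Bars are counting intervals of 95%, 1 library stands behind each colour, and every interval of the ratio spans 0.

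Some list genes differed more than the members did. Gzmk, a granzyme of early effector cells, was at 139 CPM in combination and 14.2 in BTYNB, higher by 3.28 on the log2 scale (38 against 8 UMIs). Eomes was higher by 2.50 and Gzma by 1.77, with intervals above 0, and Cd200r1 by 1.30 with an interval that reached below 0. Klf2, a factor of resting T cells, was also higher (1.29, 0.90 to 1.68), and Tnfrsf9 was lower (-1.07, -1.61 to -0.56), both named after their values had been seen. Of 11 effector genes 2 were higher and none was lower, and none of the 8 signalling genes passed 2-fold. Among all T cells at the floor, 62 against 127 cells, again no member passed 2-fold, against 2.97% and 4.17% of all genes. Lag3 was higher by 0.93 (0.14 to 1.71), Havcr2 by 0.67 (0.16 to 1.17) and Tox by 0.39. In CD8 T cells alone their intervals spanned 0. CD8 T cells were 39 of the 62 cells in combination and 63 of the 127 in BTYNB, and the part of this mix was not tested. Of the lists, Gzmk and Eomes were higher by 2.60 and 1.86, Gzma by 1.0 and Pilra, an inhibitory receptor of myeloid cells, lower by 2.16. Without cells with a dendritic UMI Lag3, Havcr2 and Tox were at -0.28, 0.25 and 0.45.

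In NK cells at the floor, 23 against 86, Cd160 was the 1 of 5 members that passed 2-fold. It was at 17.6 CPM in combination (3 UMIs) and 85.9 in BTYNB (57 UMIs), lower by 2.28 on the log2 scale (interval -4.60 to -0.66). Of all genes 8.36% were lower and 6.51% higher. When each cell was thinned to the floor, 1 of 23 cells showed it, 4.35% (0.11 to 21.9%), against 30 of 86 cells in BTYNB, 34.9% (24.9 to 45.9%). Tox was at 94.1 and 131 CPM, Ctla4 at 70.6 and 75.3, and Tigit at 23.5 and 37.7. Of the lists, Id3 was higher by 4.05, and Cd226, Cd27 and Icos were lower by 2.43, 2.43 and 2.28, the last pair on 1 UMI each in combination with intervals that reached above 0. The Id3 ratio rested on 34 against 8 UMIs. Tumour cells had 297 CPM of Id3 in combination and 301 in BTYNB, and the part of tumour RNA in this ratio was not tested. Likely doublets had been left out, 53.1% of the NK gate in combination and 27.1% in BTYNB at the floor.

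Control and anti-PD-1 ascites gave too few T and NK cells for levels. The 11 control cells held 1 Pdcd1, 2 Lag3, 3 Havcr2, 3 Tigit, 8 Ctla4, 10 Tox, 0 Cd160 and 1 Btla UMI. The 7 anti-PD-1 cells held 5 Pdcd1, 5 Lag3, 2 Havcr2, 2 Tigit, 5 Ctla4, 3 Tox, 0 Cd160 and 0 Btla UMIs. In anti-PD-1, 94.2% of 736 Pdcd1 UMIs and 94.0% of 367 Tigit UMIs lay in the tumour gate.

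Tumour cells of the anti-PD-1 library carried Pdcd1 and Tigit. At the floor Pdcd1 was at 9.36 CPM (656 UMIs) against 0.37 in control (26 UMIs), 25.3-fold higher, and Tigit at 4.76 against 0.54 CPM, 8.80-fold higher. These were 2 of 7 members with enough UMIs, none was lower, and of all genes 5.07% were higher and 2.29% lower. Lag3 (11.1 and 8.62 CPM) and Ctla4 (8.23 and 5.93 CPM) differed by less than 2-fold. Of the lists, Ccr7 was higher by 3.93 on the log2 scale (47.2 against 3.09 CPM), Tnf by 3.66 and Prf1 by 2.68. Between combination and BTYNB no member passed 2-fold in tumour cells, against 1.35% and 0.727% of all genes, and Pdcd1 was at 0.63 and 0.34 CPM. There the largest ratios of list genes were -0.93 for Fgl1, 0.92 for Lair1, -0.91 for Nectin3 and 0.87 for Cd226, all short of 2-fold. This comparison was added after these UMIs had been seen, and the libraries of each pair differ by the antibody.

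Over all depths the Pdcd1 UMIs lay in 595 of 10322 tumour cells (5.76%), with at most 4 in a cell, and made up 94.2% of the library's Pdcd1. Both genes were higher in cells with more UMIs of Cd24a, a surface glycoprotein. Pdcd1 was at 2.66 CPM in cells with 0 Cd24a UMIs, 11.2 with 1 to 4 and 27.0 with at least 5, and Tigit at 0.64, 4.50 and 17.6. Cells of at least 5 Cd24a UMIs numbered 1274 in anti-PD-1, 57 in control, 57 in BTYNB and 44 in combination, and the last 3 held no UMI of either gene. Without such cells the log2 ratios were 3.88 for Pdcd1 and 1.80 for Tigit. Of the T cell genes, Trac was at 2.48 CPM in cells with Pdcd1 and 9.38 in the others, Lck at 1.06 and 2.38, and Cd28 at 0.18 and 0.84. Cd3d was at 0 UMIs and 0.29 CPM, Cd3e at 0.53 (3 UMIs) and 0.33, Cd8a at 0.71 (4 UMIs) and 0.38, and Cd2 at 0.53 and 0.18. Trbc1, Trbc2, Cd3g, Cd8b1 and Cd4 were at most at 0.88 CPM in either. Of the genes of the tumour gate, Krt8, Krt18 and Krt19 were higher in cells with Pdcd1 (739 against 475, 1094 against 672 and 1360 against 889 CPM), and Krt7, Upk3b and Msln were lower (4.25 against 16.6, 125 against 500 and 61.4 against 79.2 CPM). Zbtb20, which overlaps Tigit, stood at 160 CPM in tumour cells of anti-PD-1 and at 162 CPM in those of control.

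Cells with Pdcd1 and cells with Tigit overlapped, and their leading genes differed. Of the 10322 tumour cells 47 had both genes, against 17.2 if the genes were independent. Among the 1274 cells with at least 5 Cd24a UMIs, 36 had both, against 42.1. With Pdcd1 they included Tff1 (291 against 51.2 CPM), Gkn2, Apoa1 and Muc2, secreted proteins of gut epithelium or lipid transport, and with Tigit they included Spp1 (1009 against 164 CPM), Mgp and Mmp13, of the extracellular matrix. The other leading genes were Disp2 and Phgr1 with Pdcd1, and Smox, Krt23 and Mmp10 with Tigit. The leading genes were chosen after their values had been seen.

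**Figure D5:**
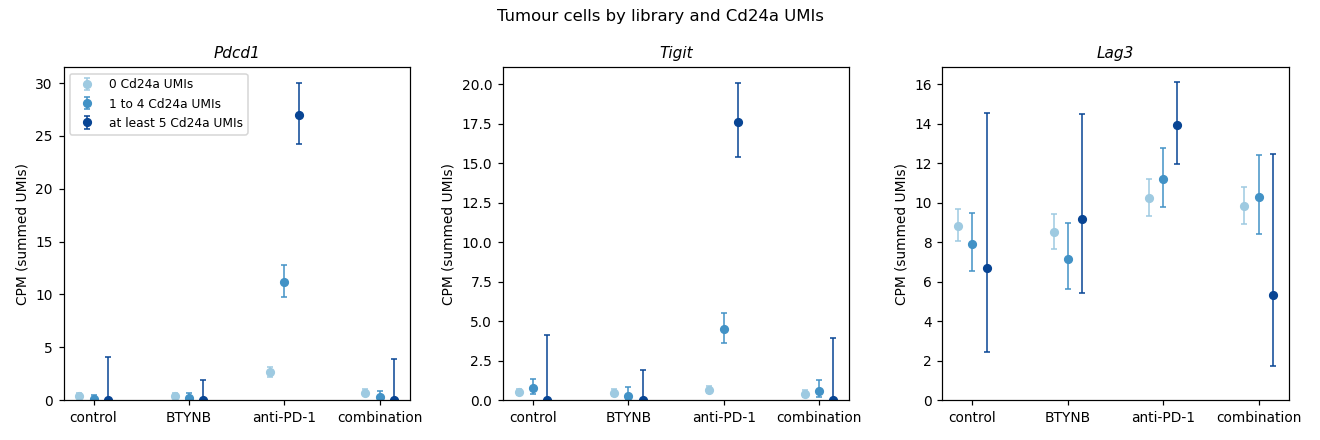
Level of Pdcd1, Tigit and Lag3 (y axes, CPM) in tumour cells of the 4 libraries (x axis), split by Cd24a UMIs per cell (shades); bars are exact Poisson intervals of 95%. Pdcd1 and Tigit reach 27.0 and 17.6 CPM in anti-PD-1 cells of at least 5 Cd24a UMIs, while Lag3 lies between 5.34 and 13.9 CPM in all classes.

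Ligands were read from the same cells. Cd274 (PD-L1) was at 164 CPM in dendritic cells, 125 in B cells, 124 in macrophages and monocytes and 13.1 in tumour cells of BTYNB. In tumour cells at the floor Cd274 stood at 8.38 CPM (control), 12.9 CPM (BTYNB), 17.0 CPM (anti-PD-1) and 19.7 CPM (combination). In BTYNB, Cd86 lay in dendritic cells (267 CPM), macrophages and monocytes (218 CPM) and B cells (166 CPM), with 2.15 CPM in tumour cells. Nectin2, a ligand of the TIGIT family, was at 144 CPM in tumour cells and 17.6 in dendritic cells of BTYNB. Pvr, the poliovirus receptor, was at 40.9 and 45.6 CPM there. In control, Nectin2 was at 160.5 CPM in tumour cells and 167.5 CPM in dendritic cells, the latter on 78 UMIs in 41 cells. Likely doublets left out were 57.7% of that dendritic gate. Cd274 was at 12.9 CPM and Cd86 at 40.8 CPM in the cells that remained. The part of tumour RNA in these values was not tested.

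Over the 11 gates of BTYNB, the pattern most like each member was sought among 9728 genes by Pearson's r of log2(CPM + 5), as a description of cells from 1 library whose depths differ. Pdcd1 was most like Klk8, Cd3e and Cd5 (r of 0.93, 0.93 and 0.92), and Tigit like Kcnip1, Nmb and Rgs16 (0.97, 0.96 and 0.96). Gm5547 and Smco4 were among the genes most like Ctla4 (0.96 and 0.95). Tox was most like Trbc1, Dnaja4 and Zdhhc15 (0.99 each), and Cd160 like Klrc1, Lpin1 and Klre1 (0.98, 0.97 and 0.97). Havcr2 was most like Ifi205, Ctnnd2 and Pianp (0.93, 0.93 and 0.89), Btla like Cd200, Ap1s3 and Sharpin (0.95, 0.94 and 0.94), Cd200 being its neighbour in RefSeq, and Lag3 like Pradc1, Mars1 and Gm42047 (0.81, 0.80 and 0.73). Among the members Tigit and Tox were most alike (r = 0.95), whereas Havcr2 and Pdcd1 were not (r = 0.02).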

How the data were processed

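Single cells of pooled ascites were captured by the authors on the BD Rhapsody HT system, and polyA RNA was sequenced as whole-transcriptome libraries. The deposited matrices hold raw UMI counts per gene and cell, made by the authors with the BD Rhapsody pipeline on build GRCm39, and no other values were used. Members, gates and lists were chosen with earlier results of these data known. Cells with at least 200 genes and at most 33% UMIs of mitochondrially encoded genes were kept. The study set the same percent over MitoCarta genes, a wider list. A cell was left out as a likely doublet when a list of another lineage held at least 3 UMIs and 0.1% of its UMIs. scrublet marked 0.0128% to 2.61% of cells per library, too few in control and anti-PD-1, and its top 5% of scores served as an alternative.

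Every T gate required 2 Cd3 UMIs, and the T gates excluded each other. Across all gates, 58 cells of BTYNB, 31 of combination, 27 of control and 6 of anti-PD-1 were in more than 1 gate. Other gates were B, dendritic, macrophage/monocyte, neutrophil and tumour (at least 5 keratin, Msln and Upk3b UMIs, no Ptprc). Counts were summed over cells and given as CPM with exact Poisson intervals, shares with Clopper-Pearson intervals after thinning, and ratios with conditional binomial intervals. UMIs collapse PCR copies, but intervals cover counting error only, and 0 counts were read against a limit of 3. Members were called at 2-fold with at least 20 UMIs over both sides. No test was run, since each group is 1 library.

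All 8 members are named. From the lists the 4 genes with the largest absolute ratio per comparison are named, and for each member the 3 genes most like it, among genes of at least 50 UMIs in T and NK gates. Some genes that this rule picks are not reported here. The ratio step was tested on simulated data. Cell types rest on these rebuilt gates, so they may differ from those of the study. Analyses used Python with numpy, scipy and scanpy. Promoters came from RefSeq, which matched 6 of 8 members.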

Additional observations from a re-analysis of the deposited data

Results flagged for a closer look

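Pdcd1 was at 9.36 CPM and Tigit at 4.76 CPM in tumour cells of the anti-PD-1 library, against 0.371 and 0.542 CPM in control. They were picked out because this signal lies outside the T and NK gates and above the control level. Cd24a moved with both, at 198 CPM in tumour cells of anti-PD-1 and 34.1 CPM in control. Among cells with fewer than 5 Cd24a UMIs both genes were still at least 2-fold higher in anti-PD-1. The part of Cd24a in the result was not tested further. Havcr2 in tumour cells had a log2 ratio of -0.30 for antibody against none without BTYNB and of 0.02 with BTYNB, and was picked out because the signs differ. The difference was not tested, and both intervals spanned 0.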

How the results depend on the processing

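No paired analysis was possible because each group is 1 library. Of 415 member ratios under alternatives, 389 moved by less than their counting interval, 26 moved by more and 0 changed sign while called. Of 82 counts of called members 73 were within 1.5 times the count reported and 9 were not. Among the 73, Treg over CD4 T cells had 3 higher with scrublet, a mean over cells, gates as worded or no dendritic UMI, CD8 T over CD4 T cells had 2 with gates as worded, and anti-PD-1 tumour cells had 3 with scrublet, no minimum or all depths. With cells of all depths, 3 members were higher in combination in CD8 T cells and 3 in all T cells, and in NK cells 1 was higher and 2 were lower. Shares of all genes past 2-fold were not taken under these alternatives. With no minimum of UMIs the counts were 1 higher in NK cells, 4 higher in Treg over CD4 T cells, and 1 higher in combination tumour cells. Scaling by the median of ratios gave 1 lower member in CD8 T cells, and a mean over cells gave 2 higher in NK over CD8 T cells. The cause was not tested. Ratios without cells with a dendritic UMI, the limit of 5 Cd24a UMIs and all tumour comparisons were chosen after seeing the data. Gates as worded were not run for all T, NK and tumour comparisons. Depth limits Cd160 most in CD8 T cells at the floor, with 4 and 16 UMIs. The BTYNB and antibody amounts differ between labels and methods.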
